A study of Mus musculus with 10 samples.

Results

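The G1 cyclins and their partner kinases and inhibitors were followed through mouse germline induction in culture. The set held 9 genes, taken by name from both unique molecular identifier (UMI) tables of the study, that is 9 of the 27998 genes in one table and 9 of the 32285 genes in the other. These were the D-type cyclins *Ccnd1*, *Ccnd2* and *Ccnd3*, the E-type cyclins *Ccne1* and *Ccne2*, the kinases *Cdk4* and *Cdk6*, and the inhibitors *Cdkn1b* and *Cdkn2a*. The names were fixed without a threshold on their levels, but with earlier results of these data known. Counts of members set beside the share of all genes are therefore descriptions.

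Single-cell RNA-seq was carried out on 10 libraries, 1 per condition. The first table held 8 libraries of E14Tg2a, a male mouse embryonic stem cell (ESC) line: ESC in 2i (PD0325901 at 0.4 µM, CHIR99021 at 3 µM, with LIF), ESC in serum plus LIF (S+L), epiblast-like cells (EpiLC) on days 1, 2 and 3 in Activin A (20 ng/ml), bFGF (12 ng/ml) and KSR (10 µl/ml), epiblast stem cells (EpiSC) passaged in Activin A (20 ng/ml) and bFGF (12 ng/ml), and embryoid bodies (EB) on days 2 and 4. EB were aggregated from EpiLC with BMP4 (0.5 µg/ml), SCF (0.1 µg/ml), LIF (1000 U/ml) and EGF (50 ng/ml), which induce primordial germ cell-like cells (PGCLC) next to somatic cells. The second table held day 4 EB of the R1 line, wild type (WT) and dCD, a clonal line derived from R1 in which the catalytic domains of MLL3 and MLL4, the main enhancer H3K4 methyltransferases, carry inactivating point mutations. All R1 and dCD cells received the same EB medium.

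D-type cyclins bind CDK4 or CDK6 and start the phosphorylation of the retinoblastoma protein, which releases E2F factors. Cyclin E with CDK2 then carries cells into S phase. p27, encoded by *Cdkn1b*, restrains cyclin-CDK complexes, and *Cdkn2a* encodes both INK4a, an inhibitor of CDK4 and CDK6, and ARF, which acts on the p53 pathway. Mouse ESC are known for a short G1 phase.

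*Cdkn2a* is the member whose values need its gene structure beside them. It lies on the minus strand of chromosome 4 (GRCm38, chr4:89274471-89294653), and its ARF and INK4a transcripts start 12427 bases apart while overlapping in their downstream exons, so 3′ UMI counts sum both. The stretches before the start sites, on the minus strand from RefSeq (GRCm38.p6) and read 5′ to 3′, are shown because they differ although their output was counted as 1 gene. Capitals mark a match to the letters TTTNNCGC, which were searched on both strands in windows from 250 bases before to 50 bases after each start.
ARF start, chr4:89294654-89294869: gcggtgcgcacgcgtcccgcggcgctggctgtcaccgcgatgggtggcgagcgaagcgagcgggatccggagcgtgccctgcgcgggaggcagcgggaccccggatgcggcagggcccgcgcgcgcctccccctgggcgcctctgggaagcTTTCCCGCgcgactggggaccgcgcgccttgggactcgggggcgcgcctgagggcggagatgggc
INK4a start, chr4:89282193-89282442: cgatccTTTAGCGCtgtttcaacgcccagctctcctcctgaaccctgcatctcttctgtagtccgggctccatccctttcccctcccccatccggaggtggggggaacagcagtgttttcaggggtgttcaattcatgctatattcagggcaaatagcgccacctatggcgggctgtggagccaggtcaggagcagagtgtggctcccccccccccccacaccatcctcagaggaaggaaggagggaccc
Such a match was present in 1698 of 32851 promoters (5.17%), and it began 99 bases before the RefSeq ARF start and 244 bases before the INK4a start. Among the other members the *Cdk6* window held 1 match as well, and those of *Cdkn1b*, *Ccne1*, *Cdk4* and *Ccnd3* held 0. Promoter entries were at hand for 6 of the 9 members, and *Ccnd1*, *Ccnd2* and *Ccne2* had none.

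Levels are given as counts per 1000000 UMIs (CPM), summed over all cells of a library. With 1 library per condition there was no replicate and no test. Exact 95% Poisson intervals are given for levels and exact conditional intervals for ratios, and these cover counting error only. A gene was counted as past 2-fold, and is said to have risen or fallen, when log2 of (CPM + 1) differed at least 2-fold and the compared groups held at least 50 UMIs of it together. "Higher" and "lower" give the direction of a difference of any size. Libraries held 227 to 537 cells in E14Tg2a, with median depths from 21658 to 36750 UMIs per cell, and 1416 WT and 1699 dCD cells with medians of 13187.5 and 11751. A stage and its library cannot be told apart, nor can a genotype, its line and its library.

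The labels were compared with marker genes. The summed level of 6 naive pluripotency markers was 1526.5 CPM in 2i ESC and 1471.1 in S+L ESC, against 274.6, 43.4 and 91.9 in d1, d2 and d3 EpiLC and 57.1 in EpiSC. Formative epiblast markers, 4 genes led by *Dnmt3b*, ran the other way, from 53.8 CPM in 2i ESC to 881.6 in d1 and 1215.1 in d2 EpiLC. Cells that the authors listed as PGCLC (91 on day 2, 44 on day 4) had 455.1 and 406.8 CPM of 6 germ cell markers, all detected, compared to 43.2 and 51.7 in the other cells of the same EB. The authors picked these cells by their enrichment for core germ cell genes, so this is a description and no independent check.

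The D-type cyclins changed most in their proportions during differentiation. *Ccnd1* (minus strand, chr7:144929931-144939925), which couples growth factor signaling to G1 progression, stood at 43.6 CPM in 2i ESC, 36.7 in S+L ESC, 160.6, 149.2 and 73.6 on days 1, 2 and 3 of EpiLC culture, 92.9 in EpiSC, and 62.5 and 20.8 in EB on days 2 and 4. It was therefore high in early EpiLC, intermediate in EpiSC and low in late EB. The highest library exceeded the lowest 7.71-fold (6.66 to 8.97), and every neighbouring pair in this order had an interval that left out 1.

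*Ccnd2* (minus strand, chr6:127125162-127152193), its paralog, was almost absent from 2i ESC and abundant in EB. Its level was 0.457 CPM in 2i ESC (4 UMIs in 8757170), 14.3 in S+L ESC, 9.55, 3.68 and 8.73 in EpiLC on days 1, 2 and 3, 21.9 in EpiSC, and 141.4 and 57.6 in d2 and d4 EB. The span was 309.5-fold with a wide interval (120.7 to 1137.0), since it rests on the 4 UMIs of 2i ESC. Only d1 and d3 EpiLC were neighbours whose ratio, 1.09, had an interval that held 1 (lower bound 0.834). After thinning every cell to 15374 UMIs, 67.2% of d2 EB cells and 37.2% of d4 EB cells held a *Ccnd2* UMI (76.4% and 42.9% unthinned), compared to 0 of 223 cells in 2i ESC (1.32% unthinned). No cell type here is known to lack the gene, so the share that free RNA gives could not be read.

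*Ccnd3* moved within a narrower band, 3.13-fold (2.89 to 3.39) from lowest to highest. It was 235.0 CPM in 2i ESC, 190.2 in S+L ESC, 159.9, 76.5 and 77.3 in EpiLC on days 1, 2 and 3, 140.9 in EpiSC, and 157.2 and 239.4 in d2 and d4 EB. 2i ESC and d4 EB formed the upper end, with a ratio of 1.02 whose interval held 1, and d2 and d3 EpiLC formed the lower end, again with an interval of their ratio that held 1. The same was true of d1 EpiLC and d2 EB in the middle.

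As a share of all D-type cyclin UMIs, which are not scaled for transcript length and are compared only across libraries, *Ccnd3* took 84.2% in 2i ESC, no more than 33.3% in d2 EpiLC and again 75.3% in d4 EB. *Ccnd1* made up 15.6% in 2i ESC, 48.7%, 65.1% and 46.1% in EpiLC on days 1, 2 and 3, and 6.55% in d4 EB. *Ccnd2* reached 39.1% in d2 EB from 0.164% in 2i ESC and 1.60% in d2 EpiLC. Among the 8 E14Tg2a libraries, *Ccnd3* thus held its largest share in 2i ESC, *Ccnd1* in d2 EpiLC and *Ccnd2* in d2 EB.

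**Figure D1:**
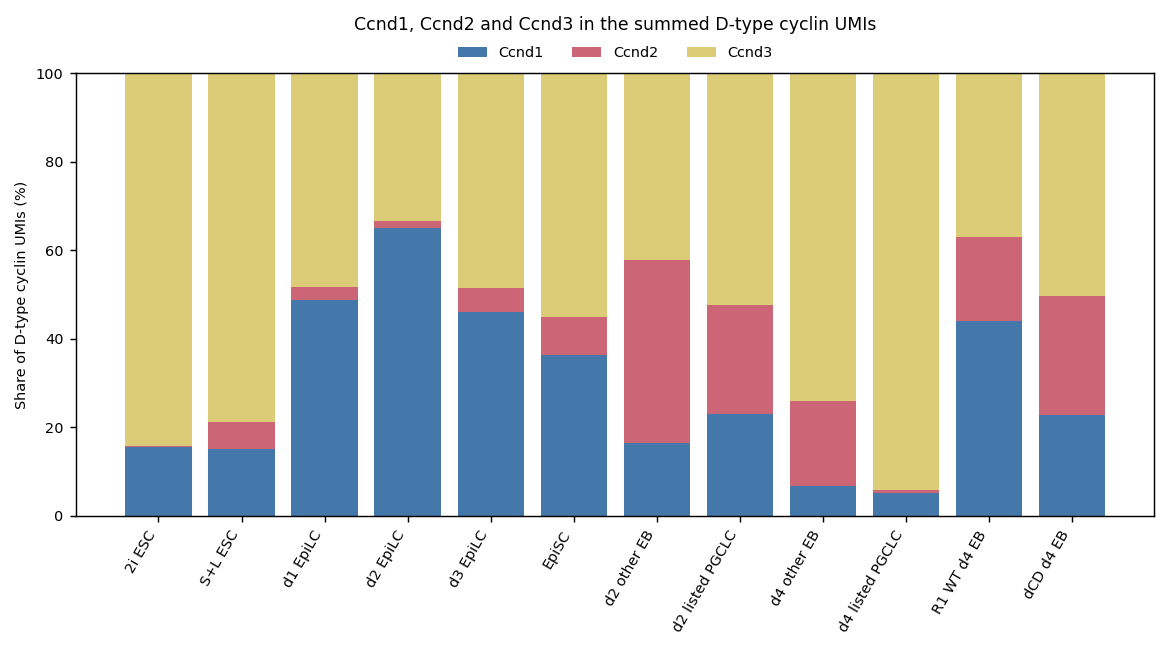
Share of the summed D-type cyclin UMIs (%) held by Ccnd1, Ccnd2 and Ccnd3 in each of 12 groups of cells, 1 library per condition. The Ccnd1 share is widest in d2 EpiLC (65.1%), and Ccnd3 makes up 94.2% in the listed PGCLC of day 4.

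Among the E-type cyclins, *Ccne1*, the activating partner of CDK2 at the G1/S transition, was highest in d1 EpiLC. Its levels were 113.6 CPM in 2i ESC, 138.1 in S+L ESC, 351.9, 193.0 and 89.3 in EpiLC on days 1, 2 and 3, 131.4 in EpiSC, and 45.9 and 50.8 in d2 and d4 EB. Both EB libraries were below all others, and the ratio between them (1.11) had an interval that held 1, as did the ratio of S+L ESC to EpiSC (1.05).

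*Ccne2* had a different course. It was 4.00 CPM in 2i ESC, 4.26 in S+L ESC, 9.55, 6.01 and 4.83 in EpiLC on days 1, 2 and 3, 11.6 in EpiSC, and 14.9 and 29.2 in d2 and d4 EB. It was thus highest in EB, where *Ccne1* was lowest, and its share of E-type cyclin UMIs was 3.40% (2.38 to 4.69) in 2i ESC and 36.5% (33.0 to 40) in d4 EB. The 4 lowest libraries, d2 and d3 EpiLC and both ESC cultures, could not be ordered by counting, as each neighbour ratio had an interval that held 1.

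*Cdk4*, the main kinase partner of D-type cyclins in most cells, spanned only 1.86-fold (1.81 to 1.92), from 515.3 CPM in d3 EpiLC to 960.1 in d1 EpiLC. The other E14Tg2a libraries lay at 665.4 in 2i ESC, 526.3 in S+L ESC, 797.6 in d2 EpiLC, 850.4 in EpiSC, and 677.6 and 667.9 in d2 and d4 EB. It did not pass 2-fold in any of the 12 comparisons.

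*Cdk6*, the other kinase that D-type cyclins activate, stood out in EpiSC. The level was 96.7 CPM (91.4 to 102.3) there, against 27.1 in 2i ESC, 20.3 in S+L ESC, 24.4, 32.8 and 32.5 in EpiLC on days 1, 2 and 3, 22.6 in d2 EB and 10.5 in d4 EB. EpiSC exceeded the next library 2.95-fold (lower bound 2.62), while several libraries in the middle of the order were not separated by counting.

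*Cdkn1b* was sparse in E14Tg2a, with 23 to 149 UMIs per library. The lowest level was 2.09 CPM in d1 EpiLC, followed by 4.57 in 2i ESC, 6.10 in d2 EpiLC, 6.14 in S+L ESC, 7.76 in EpiSC, 8.81 and 9.16 in EB of days 2 and 4, and 10.6 in d3 EpiLC. Apart from the gap above d1 EpiLC (2.18-fold, lower bound 1.28), no neighbours were separated by counting.

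*Cdkn2a* nearly vanished at 1 stage. It was 18.2 CPM in 2i ESC, 12.6 in S+L ESC, 21.3 in d1 EpiLC, 9.77 in d2 EpiLC, 0.852 (0.440 to 1.49) in d3 EpiLC, 13.9 in EpiSC, and 3.34 and 4.17 in d2 and d4 EB. The d3 EpiLC value rests on 12 UMIs, no cell had more than 1 of them, and it was the lowest of the 8 libraries. Since the UMIs sum both starts shown above, which transcript they came from was not measured.

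**Figure D2:**
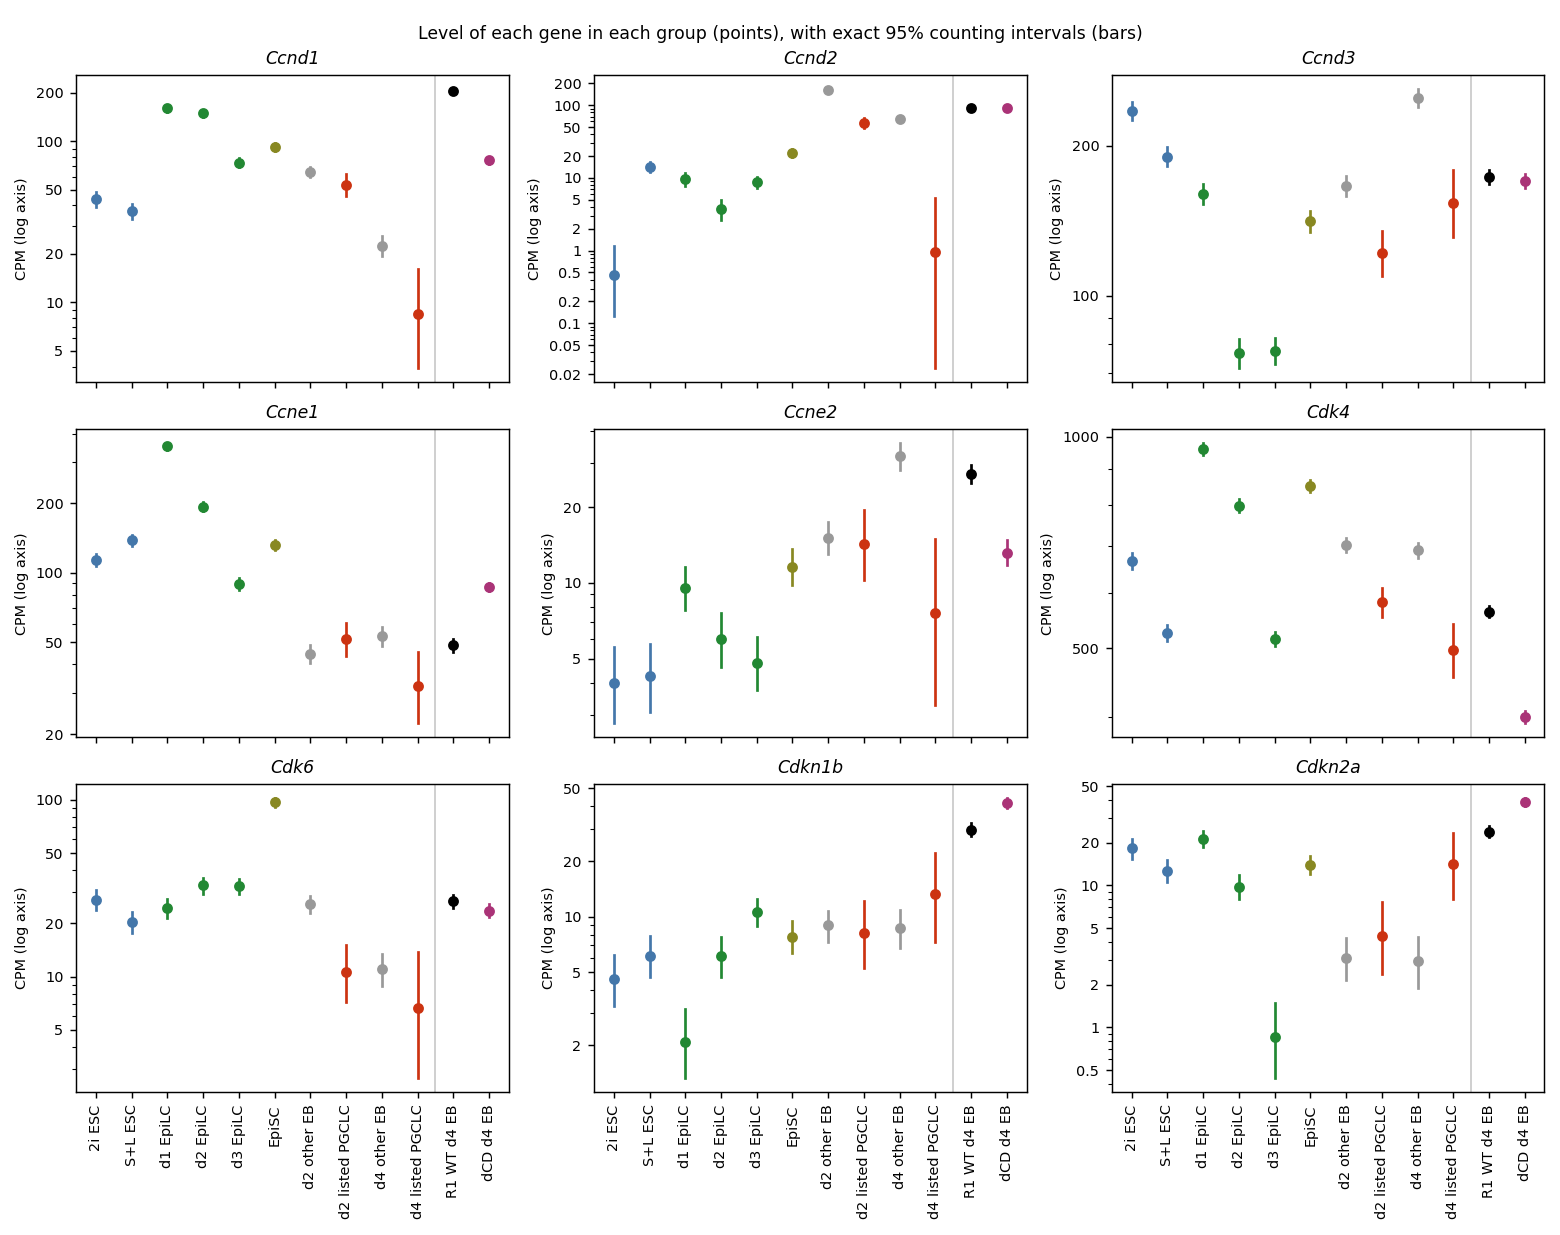
Level of each of the 9 genes (CPM, log axes that differ between panels) in each group, points with exact 95% counting intervals; the grey line parts E14Tg2a (left) from R1 (right), which were counted in separate tables. Ccnd1 and Ccne1 are highest among E14Tg2a groups in d1 EpiLC, Ccnd2 in the other cells of d2 EB, Cdk6 in EpiSC, and Cdkn2a is lowest in d3 EpiLC.

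How these levels changed from one stage to the next was then compared. From 2i ESC to d1 EpiLC, 4 of the 9 genes rose and none fell, with 17.8% of 9653 genes at least 2-fold apart; the median log2 ratio was 0.53 for the members and 0.17 for all genes. *Ccnd1* rose 3.68-fold (3.29 to 4.12), *Ccne1* 3.10-fold (2.89 to 3.32), *Ccne2* 2.39-fold (1.62 to 3.61) and *Ccnd2* 20.9-fold (7.93 to 78.1, 105 against 4 UMIs). Cyclins of both types therefore rose in the first day of EpiLC induction, with *Ccnd3* (ratio 0.681) as the exception. With the median of all genes set to 0, or with 5 CPM added before the log in place of 1, the *Ccne2* difference dropped below the threshold.

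Among 29 further genes of the G1/S machinery, 26 had enough UMIs, of which 8 rose and none fell in this step. The list included *Cdkn1c*, encoding the inhibitor p57 (13.9-fold, 60.3 against 4.34 CPM), *Myc* (6.64-fold), *Rb1*, encoding the retinoblastoma protein (5.37-fold), *Cdkn2b*, encoding INK4b (4.78-fold), *E2f8* (3.97-fold) and the E2F partner *Tfdp2* (3.45-fold). The summed levels of 12 S phase genes and 12 G2/M genes, each without a member at 0, also differed, from 1147.9 to 1505.5 CPM and from 1394.4 to 1728.1 CPM, and their part in the result was not tested.

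From d1 to d2 EpiLC the direction turned. *Ccnd2* (ratio 0.385, 0.262 to 0.557), *Ccnd3* (0.478, 0.440 to 0.519) and *Cdkn2a* (0.459, 0.362 to 0.579) fell, and *Cdkn1b* rose 2.91-fold (1.79 to 4.90), with 15.4% of 10216 genes past 2-fold. With 5 CPM added before the log, *Ccnd3* stayed past 2-fold, while *Ccnd2* (log2 ratio -0.75), *Cdkn2a* (-0.83) and *Cdkn1b* (0.65) did not. Of the G1/S genes, 4 of 26 fell and none rose, namely *E2f2* (0.204), *Cdkn2b* (0.230), *Rb1* (0.347) and *Tfdp2* (0.494).

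In d3 compared to d2 EpiLC, *Cdkn2a* fell to a ratio of 0.0872 (0.0437 to 0.159), *Ccne1* to 0.463 (0.431 to 0.496) and *Ccnd1* to 0.494 (0.456 to 0.534), while *Ccnd2* rose 2.38-fold (1.66 to 3.47). Past 2-fold were 6.55% of 10603 genes. The *Ccnd1* value sat at the threshold and dropped below it when called doublets were left out. With 5 CPM added before the log, *Ccnd2* was also below it (log2 ratio 0.66). *Cdk4*, short of the threshold, had a ratio of 0.646 (0.626 to 0.666). S phase genes summed to 846.6 CPM on d3, led by *Slbp* and *Gins2*, against 1438.8 on d2, led by *Rrm2* and *Slbp* (ratio 0.588). G2/M genes summed to 1513.1 against 1666.3 CPM. The part of both lists in these differences was not tested. Of 25 G1/S genes, *Cdkn1a*, encoding p21, rose 2.31-fold and *Cdkn1c* fell to 0.429.

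In EpiSC compared to d3 EpiLC, 4 of 9 genes rose and none fell, with 13.8% of 10883 genes past 2-fold and medians of 0.86 for the members and 0.15 for all genes. *Cdkn2a* rose 16.4-fold (9.14 to 32.3), *Cdk6* 2.98-fold (2.67 to 3.32), *Ccnd2* 2.51-fold (2.03 to 3.13) and *Ccne2* 2.40-fold (1.79 to 3.25). With the median of all genes set to 0, *Ccne2* was below the threshold (log2 ratio 0.96), and with 5 CPM added before the log so were *Ccne2* (0.76) and *Ccnd2* (0.97). Of 26 G1/S genes, *Cdkn1c* (5.46-fold) and *Cdkn2b* (5-fold) rose. EpiSC also carried 422.9 CPM of 6 primitive streak markers, led by *Fgf8*, compared to 15.9 CPM in d3 EpiLC, where *Mixl1* was at 0, and 136.0 CPM of 7 endoderm or gut markers, led by *Cer1* and *Foxa2*, compared to 1.49 CPM. Their part in the result was not tested.

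The ESC cultures differed in *Ccnd2*, which was 31.2-fold higher in S+L than in 2i (11.9 to 116.1, 144 against 4 UMIs). It was the only one of 9 members past 2-fold, with 9.72% of 9718 genes past it. Of 25 G1/S genes 4 rose, *Cdkn1c* 5.93-fold, *Rb1* 2.76-fold, *Myc* 2.72-fold and *Tfdp2* 2.19-fold. Markers of the 2-cell embryo summed to 22.9 CPM in S+L ESC and 0 in 2i ESC, and extraembryonic ectoderm markers to 15.6 and 5.60. S phase genes summed to 873.5 and 1147.9 CPM, and G2/M genes to 1350.3 and 1394.4. Their part in the *Ccnd2* difference was not tested.

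EB cells were set against d2 EpiLC, the stage from which EB are made, separately for listed PGCLC and for all other cells, so that both comparisons share the EpiLC library. In the d2 PGCLC, *Ccnd2* rose 15.6-fold (11.0 to 22.5) and *Ccne2* 2.38-fold (1.58 to 3.56), while *Ccnd1* (0.359, 0.303 to 0.423), *Ccne1* (0.267, 0.225 to 0.315) and *Cdk6* (0.322, 0.216 to 0.465) fell, with 17.6% of 9513 genes past 2-fold. Of the 168 *Ccnd2* UMIs of these PGCLC, 160 were in 61 cells (77.5 CPM, cluster 2 below) and 8 in 30 cells (9.22 CPM, cluster 1). The EB cells that were not listed had *Ccnd2* up 44.2-fold (32.5 to 61.8), *Ccne2* up 2.52-fold (1.89 to 3.38) and *Ccnd3* up 2.17-fold (2.00 to 2.36), with *Ccnd1* (0.434), *Ccne1* (0.230) and *Cdkn2a* (0.314) down and 25.7% of 10720 genes past 2-fold. *Cdkn2a* was lower in the d2 PGCLC too, at a ratio of 0.454 (0.234 to 0.809, 13 UMIs), just short of the threshold (log2 ratio -0.99). Without cells that held extraembryonic ectoderm marker UMIs (3 or more), the *Ccnd3* difference was below the threshold (log2 ratio 0.93). With 5 CPM added before the log, *Ccne2* in both comparisons (0.81 and 0.87) and *Cdkn2a* in the other cells (-0.87) were below it.

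*Cdkn1c*, outside the set, rose 3.61-fold in PGCLC and 7.73-fold in other cells. Of 24 G1/S genes, *Rb1* also rose in PGCLC (2.70-fold) and *Myc* (0.432), *E2f7* (0.460) and *E2f4* (0.465) fell. In the other cells *E2f5* rose 2.63-fold and *Mycn* (0.292) and *E2f8* (0.464) fell. G2/M genes summed to 1302.4 CPM in the d2 PGCLC and 1035.9 in the other cells, against 1666.3 in d2 EpiLC, and S phase genes to 954.3, 999.0 and 1438.8. In the same order, formative markers summed to 52.8, 53.4 and 1215.1 CPM and naive pluripotency markers to 634.8, 262.2 and 43.4. Extraembryonic mesoderm markers summed to 100.6, 1115.4 and 0.896, and primitive streak or nascent mesoderm markers to 433.0, 268.4 and 42.2. Their part in the cyclin values was not tested.

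The listed PGCLC were next compared with the other cells of the same EB. The list came from the authors' k-means clusters, made on t-SNE maps of these same cells, of which those enriched for core germ cell genes were taken as PGCLC. Which genes entered the maps is not stated in the sources used here, so the differences are a description. On day 2 *Ccnd2* stood at 57.3 CPM (48.9 to 66.6) in PGCLC and 162.4 (155.2 to 169.9) in other cells, a ratio of 0.353 (0.299 to 0.413). *Cdk6* stood at 10.6 and 25.6 CPM, a ratio of 0.413 (0.276 to 0.598). These 2 of the 8 members with enough UMIs fell and none rose, with 14.1% of 9750 genes past 2-fold. *Cdk6* was at a log2 ratio of -0.98 with 5 CPM added before the log, below the threshold. Over all cells the E-type cyclins were close, at 51.5 and 44.5 CPM for *Ccne1* (ratio 1.16, 0.959 to 1.39) and 14.3 and 15.1 CPM for *Ccne2* (0.948, 0.660 to 1.33), with intervals that held 1.

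On day 4 the D-type cyclins of PGCLC were nearly all *Ccnd3*. *Ccnd2* had 1 UMI in 44 PGCLC and 552 UMIs in the other cells, 0.948 against 64.6 CPM, a ratio of 0.0147 (0.000371 to 0.0822). *Ccnd1* stood at 8.53 CPM (9 UMIs) against 22.3 CPM (191 UMIs), a ratio of 0.382 (0.172 to 0.740). Of these 191 UMIs, 106 were in the 28 cells of cluster 4 below. The 253 other cells of cluster 1 were at 6.76 CPM (4.74 to 9.36), so *Ccnd1* was not lower in PGCLC than in them. *Ccne2* stood at 7.59 CPM (8 UMIs) against 31.8 CPM (0.238, 0.102 to 0.476). The shares of *Ccnd3*, *Ccnd1* and *Ccnd2* in D-type UMIs were 94.2%, 5.23% and 0.581% in PGCLC and 74.2%, 6.63% and 19.2% in the other cells. Such a makeup was not particular to PGCLC. Among the other cells, the 38 of cluster 3 below held 930 *Ccnd3*, 49 *Ccnd1* and 4 *Ccnd2* UMIs.

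These 3 of 8 members fell and none rose, and 36.0% of 9338 genes were past 2-fold, 2818 of them lower in PGCLC and 544 higher. The median log2 ratio was -0.70 for the members and -0.48 for all genes. With that median set to 0, *Ccnd2* and *Ccne2* stayed past 2-fold, *Ccnd1* did not (log2 ratio -0.81, and below the threshold as a mean over cells too), and *Cdkn1b* came to 1.05. *Ccnd3* (ratio 0.615), *Ccne1* (0.607) and *Cdk4* (0.721) were not past 2-fold.

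*Cdkn2a* had too few UMIs to be counted, 15 in PGCLC (14.2 CPM) and 25 in other cells (2.92 CPM), a ratio of 4.86 (2.38 to 9.59). Of the 15 UMIs in PGCLC, 11 were in a single cell, and the remaining PGCLC held 4.

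On day 4 the rest of the G1/S list had 7 of 23 genes past 2-fold, beside the 36.0% of all genes, and a median log2 ratio of -0.47 against -0.48. *Cdkn1c* fell to 37.9 CPM in PGCLC from 2212.7 in other cells (ratio 0.0171, 0.0122 to 0.0234), and *Myc* had a ratio of 0.0366 (0.00442 to 0.133). With *E2f6* (0.209), *E2f3* (0.243) and *E2f7* (0.358), 5 genes fell, while *Cdkn1a* (2.42-fold) and *Fbxo5*, encoding an inhibitor of the anaphase-promoting complex (2.13-fold), rose. On day 2 the 24 genes with enough UMIs had *Mycn* (4.18-fold) and *Rb1* (3.72-fold) higher, and *Myc* (0.209) and *Cdkn1c* (0.467) lower. *Myc* and *Cdkn1c* were thus lower in PGCLC than in the other EB cells at both times.

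G2/M genes summed to 1302.4 CPM in PGCLC and 1035.9 in other cells on day 2, and to 1573.1 and 1019.1 on day 4, led by *Ube2c* in each. S phase genes summed to 954.3 and 999.0 on day 2, and to 833.5 and 928.1 on day 4. On day 2, 7 extraembryonic mesoderm markers led by *Hand1* (86.3 and 941.5 CPM) summed to 100.6 CPM in PGCLC, with *Postn* at 0, and to 1115.4 in other cells. Extraembryonic ectoderm markers led by *Gata3* summed to 46.7 and 109.8 CPM, with *Elf5* at 0 in both. The other day 4 cells also held blood, vessel and extraembryonic cells. They had 1353.0 CPM of 5 erythroid markers led by *Hbb-y*, 254.1 of 6 endothelial markers led by *Cldn5*, 681.6 of 6 extraembryonic ectoderm markers led by *Rhox6* and 734.7 of 7 extraembryonic mesoderm markers led by *Hand1*, none at 0. The erythroid sum was carried by 5 cells, in which it was 78730.4 CPM. In the PGCLC the sums were 25.6 (*Gata1* at 0), 56.9, 64.5 (*Elf5* at 0) and 23.7 (*Postn* at 0). The part of these markers in the cyclin differences was not tested.

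**Figure D3:**
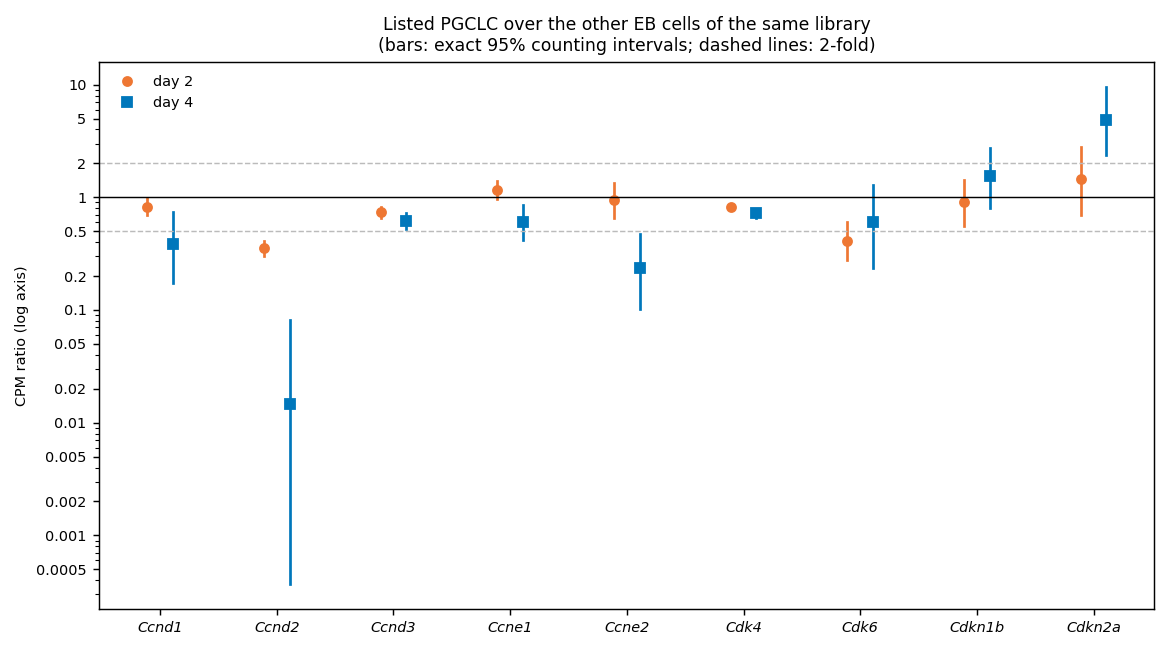
CPM ratio (log axis) of listed PGCLC to the other EB cells of the same library for each gene on day 2 (circles) and day 4 (squares), with exact 95% counting intervals; the dashed lines mark 2-fold. Ccnd2 lies lowest at both times (0.353 and 0.0147), and Cdkn2a on day 4 lies at 4.86 on 15 and 25 UMIs.

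Between day 2 and day 4, *Ccnd1* and *Ccnd2* fell on both sides. In the PGCLC the ratios were 0.159 (0.0716 to 0.310) and 0.0166 (0.000417 to 0.0935), 2 of the 6 members with enough UMIs, with 11.0% of 6125 genes past 2-fold. In the other cells they were 0.345 (0.293 to 0.405) and 0.398 (0.361 to 0.437), *Cdk6* fell to 0.429 (0.337 to 0.543) and *Ccne2* rose 2.11-fold (1.74 to 2.56), with 13.5% of 10717 genes past 2-fold. The PGCLC ratio of *Ccnd2* pools day 2 cells of cluster 2 (61 cells, 77.5 CPM) and cluster 1 (30 cells, 9.22 CPM on 8 UMIs), which were not set against day 4 separately. The median log2 ratio of all genes was -0.18 in PGCLC and 0.12 in other cells, and with it set to 0 the *Ccne2* difference in other cells was below the threshold. With 5 CPM added before the log, *Ccne2* (log2 ratio 0.87) and *Cdk6* (-0.94) in other cells were below it. *Cdkn1c* fell to 0.209 in PGCLC and rose 5.70-fold in the other cells, where *Mycn* (3.14-fold), *Cdkn2d* (2.54-fold) and *Myc* (2.12-fold) also rose, 4 of 24 G1/S genes. In PGCLC, *Cdkn1a* (2.47-fold) and *Cdkn2d* (2.42-fold) rose among 16. Primitive streak or nascent mesoderm markers, 6 genes led by *Fgf8* in PGCLC and *Mesp1* in other cells on day 2, went from 433.0 to 5.69 CPM in PGCLC, where *T*, *Mixl1* and *Mesp1* were at 0 on day 4, and from 268.4 to 2.57 in other cells. Naive pluripotency markers, led by *Klf2* in PGCLC and *Tbx3* in other cells, went from 634.8 to 1221.3 and from 262.2 to 320.2 CPM. In the other cells, erythroid markers went from 0.171 to 1353.0 CPM and endothelial markers from 19.3 to 254.1. Their extraembryonic ectoderm markers went from 109.8 to 681.6 and extraembryonic mesoderm markers from 1115.4 to 734.7. In PGCLC these 4 sums went from 0 to 25.6, 29.7 to 56.9, 46.7 to 64.5 and 100.6 to 23.7. The part of these markers in the cyclin differences was not tested.

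To see which EB cells carried the cyclins, each EB library was clustered without the 9 members, the G1/S list and the phase genes. Clusters are called by number. On day 2, cluster 1 (267 cells, led by *Pitx1* and *Hoxc10*) held 30 listed PGCLC, cluster 2 (213 cells, led by *Fgf8* and *Cldn5*) held 61, and cluster 3 (57 cells, led by *3830417A13Rik* and *Tinagl1*) held none. *Ccnd2* was lower in the listed cells within both, at 9.22 against 152.2 CPM in cluster 1 and 77.5 against 253.9 in cluster 2. *Ccne1*, close over all cells, was higher in the listed cells within both, at 74.9 CPM (57.8 to 95.4) against 36.3 (31.7 to 41.4) and at 41.6 (33.3 to 51.4) against 19.7 (15.2 to 25.1). Cluster 3, which added to the other cells only, had 103.2 CPM. *Cdkn1b* differed in opposite directions, at 13.8 CPM in listed against 6.38 in other cells of cluster 1 (12 and 39 UMIs) and at 5.81 against 12.8 in cluster 2 (12 and 43 UMIs). The listed cells also differed from their neighbours in markers. In cluster 1 they had 26.5 CPM of extraembryonic mesoderm markers against 1334.3, 1080.6 of naive pluripotency markers against 266.0 and 341.0 of germ cell markers against 14.6. In cluster 2 the sums were 131.7 against 914.2, 447.4 against 268.2 and 503.1 against 83.3. Their part in the cyclin differences within the clusters was not tested. *Ccnd1* was 83.8, 44.5 and 39.9 CPM in clusters 1 to 3, and *Ccnd3* 124.3, 146.1 and 285.6.

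On day 4 most *Ccnd1* UMIs lay in a small cluster. Cluster 4, 28 cells led by *Cldn5*, *Ctla2a* and *Emcn* with all 6 endothelial markers at least 2-fold higher, held 106 of the 200 *Ccnd1* UMIs, 86.0 CPM (70.4 to 104.0), compared to 6.76, 7.54 and 26.4 in clusters 1, 2 and 3. In cluster 3, 26 of the 49 *Ccnd1* UMIs were in a single cell, and the level without it was 12.7 CPM (8.08 to 19.1). Cluster 4 also had the highest *Ccnd2*, 148.4 CPM, against 68.2, 2.51 and 2.16. Cluster 3, 38 cells led by *Rhox6* and *Rhox9* with all 6 extraembryonic ectoderm markers at least 2-fold higher, had 501.8 CPM of *Ccnd3* and 100.4 CPM of *Ccne1*, compared to 166.4, 168.4 and 228.7 and to 40.8, 33.5 and 36.5 in clusters 1, 2 and 4. *Ccnd3* was nonetheless found in most cells, with a UMI in 91.7% of the 253 cells of cluster 1, which held 886 of its UMIs against 930 in cluster 3. A single cell of cluster 3 held 200 *Ccnd3* UMIs, 8.70% of those of the library, and the cluster was at 427.4 CPM without it. Cluster 2 held all 44 listed PGCLC among its 49 cells, and its leading genes were the globins *Hba-a1*, *Hba-x* and *Hbb-y*, which came from the other 5 cells. It was low in *Ccnd1* and *Ccnd2* like clusters 1 and 3 respectively, and at the level of cluster 1 in *Ccnd3*.

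**Figure D4:**
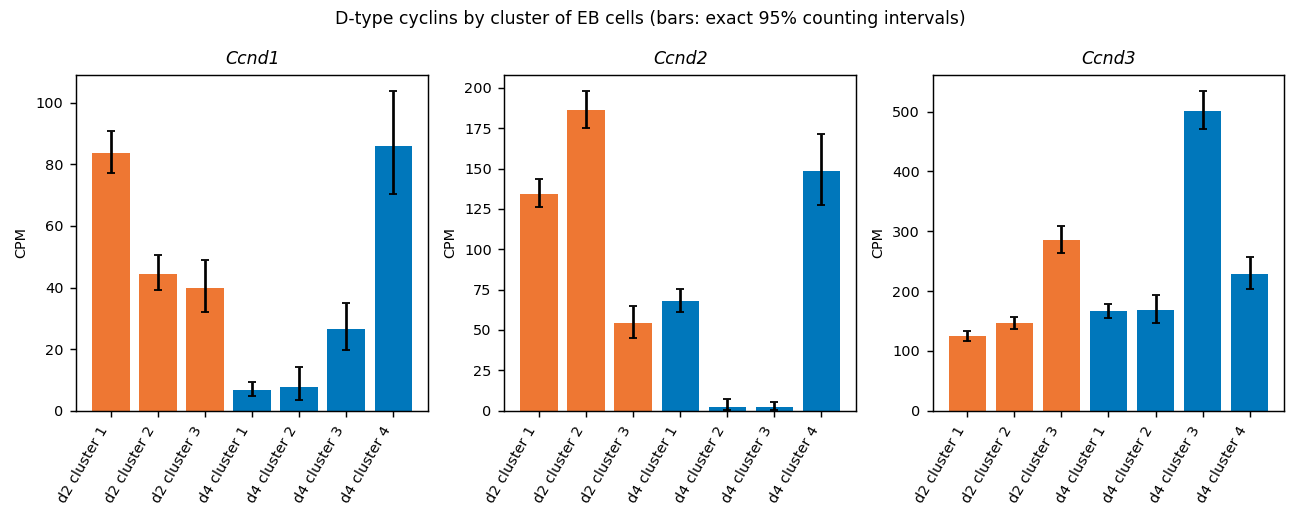
Level of the D-type cyclins (CPM, bars with exact 95% counting intervals) in the 3 clusters of d2 EB and the 4 clusters of d4 EB. Ccnd1 (86.0) and Ccnd2 (148.4) are highest on day 4 in cluster 4, and Ccnd3 in cluster 3 (501.8).

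UMIs of the D-type cyclins were also counted together in single cells, without a background share for free RNA, so that the shares are of cells with a UMI and not of cells expressing the genes. In cells thinned to 15374 UMIs, 30.1% of 519 d2 EB cells held UMIs of all 3, compared to 7.25% of 331 d4 EB cells and 3.18% of 283 d2 EpiLC. On day 2, *Ccnd2* was found in 67.6% of cells with a *Ccnd1* UMI and in 66.8% of those without. On day 4 these shares were 60% of 40 and 34.0% of 291 cells. In the day 4 PGCLC, 3 of 38 thinned cells held *Ccnd1* and none held *Ccnd2* or all 3.

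Levels were also compared within each library between cells in the highest and the lowest tertile of the G2/M gene share. *Ccne2* was lower in the G2/M-high cells of all 10 libraries, with ratios from 0.452 to 0.775 (median 0.568) and 7 intervals below 1. *Cdkn1b* was higher in all 10, from 1.16 to 2.37 (median 1.59), with 4 intervals above 1. *Ccnd2* was lower in 7 of 10 (median 0.546) with 6 intervals below 1, and *Cdk4* had ratios from 0.882 to 1.06, with 4 intervals below 1 and 0 above. For *Ccnd1*, *Ccnd3*, *Ccne1*, *Cdk6* and *Cdkn2a* the direction was mixed, *Ccnd1* being higher in 5 libraries and lower in 5. *Ccna2*, a cyclin of S phase and G2, was higher in all 10 libraries. In EB libraries, cell types can differ in both the G2/M genes and a member. In d4 EB the listed PGCLC had 1573.1 CPM of G2/M genes against 1019.1 in other cells, and 0.948 against 64.6 CPM of *Ccnd2*. The part of cell type in these ratios was not tested.

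The genes whose pattern was most like each member were ranked by Pearson's correlation of log levels among 6979 genes, over 10 groups of E14Tg2a cells that share libraries, as a description. They were *Pbdc1* (0.969), *Ppil1* (0.954) and *Nasp* (0.947) for *Ccnd1*, *Dennd2a* (0.949), *Trim44* (0.936) and *Tmem258* (0.926) for *Ccnd2*, and *1810058I24Rik* (0.943), *Parvb* (0.936) and *Mpc2* (0.921) for *Ccnd3*. For *Ccne1* they were *Orc2* (0.972), *Dtymk* (0.965) and *Etf1* (0.961), and for *Ccne2* *Zfx* (0.978), *Virma* (0.972) and *Brd9* (0.969). The nearest genes were *Lsm5* for *Cdk6* (0.915), *Asap2* for *Cdkn1b* (0.915) and *Zfp428* for *Cdkn2a* (0.930). For *Cdk6*, *Pcbp2* and *Dnajc15* had the same value as *Lsm5* at the printed digits. *Cdk4* spanned too little to be ranked.

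Finally, dCD EB were compared with WT EB of the R1 line on day 4, to ask which members differ when MLL3 and MLL4 are catalytically dead. *Ccnd1* was lower in dCD, 76.3 CPM (72.7 to 79.9) against 206.5 (200.3 to 212.8), a ratio of 0.369 (0.349 to 0.391). It was the only member of 9 past 2-fold, with 11.3% of 13148 genes past it, and the medians of the log2 ratios were -0.03 for members and 0.01 for all genes. *Ccnd2* (90.7 against 90.3 CPM, ratio 1, 0.944 to 1.07) and *Ccnd3* (169.7 against 173.3 CPM, ratio 0.979, 0.936 to 1.03) differed by less than counting error, so that the *Ccnd1* share of D-type UMIs was 22.7% in dCD and 43.9% in WT.

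Over all cells the E-type cyclins differed in opposite directions without passing 2-fold. *Ccne1* was 86.7 CPM in dCD and 48.4 in WT (ratio 1.79, 1.66 to 1.93), and *Ccne2* was 13.2 and 27.1 CPM (0.488, 0.423 to 0.563), just inside the threshold on the CPM + 1 scale (log2 ratio -0.98). *Cdk4* had a ratio of 0.709 (399.6 against 564.0 CPM), *Cdk6* 0.885 (23.6 against 26.7), *Cdkn1b* 1.39 (41.4 against 29.7) and *Cdkn2a* 1.61 (38.5 against 23.9). Both inhibitors were therefore above WT by less than 2-fold and by more than counting error. *Cdkn1c* fell to 10.7 CPM in dCD from 335.7 in WT (ratio 0.0318, 0.0278 to 0.0361) and *Myc* to 12.7 from 30.7 (0.414), 2 of 29 G1/S genes, and none rose.

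The EB also differed in makeup. Extraembryonic mesoderm markers, 7 genes led by *Hand1*, summed to 358.9 CPM in dCD and 1369.6 in WT, extraembryonic ectoderm markers, led by *Rhox6* in dCD and by *Gata3* in WT, where *Elf5* was at 0, to 300.3 and 104.9, and erythroid markers to 0.175 and 45.8, with all 4 globins at 0 in dCD. Germ cell markers summed to 103.6 and 108.0, but their cells differed: of the joint clusters described next, clusters 7 and 8, in each of which 5 of the 6 markers were at least 2-fold higher, held 182 and 98 WT cells and 11 and 4 dCD cells. In cluster 4 (3 WT and 454 dCD cells) 3 of the 6 (*Prdm14*, *Tfap2c* and *Dppa3*) and 5 of 6 naive pluripotency markers were at least 2-fold higher, with sums of 194.2 and 1542.6 CPM. Naive pluripotency markers, led by *Tbx3*, summed to 747.4 CPM in dCD and 521.6 in WT, and formative markers, led by *Dnmt3b*, to 100 and 53.4. Markers of the 2-cell embryo, 7 genes led by *Zscan4d* in dCD, summed to 27.0 CPM in dCD and 0.0486 in WT, where 6 were at 0, and cluster 9, which had *Zscan4d* among its leading genes, held 44 dCD cells and 0 WT cells. S phase genes summed to 1659.1 CPM in dCD and 1467.2 in WT, and G2/M genes to 2660.5 and 1944.1. The part of these markers in the cyclin differences was not tested. In such sums, fewer cells of a type and less RNA per cell cannot be told apart.

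Of 10 clusters made jointly without the cell cycle genes, 2 held at least 50 cells of both genotypes. In cluster 1 (547 WT and 117 dCD cells, led by *Ctla2a*, *Cdh5* and *Col3a1*) *Ccnd1* was 173.5 CPM in dCD and 373.7 in WT, a ratio of 0.464 (0.407 to 0.528). Within cluster 6 (153 WT and 113 dCD cells, led by *Vgll3*) the ratio was 0.383 (0.337 to 0.435). *Ccnd1* was thus lower in dCD inside both of these clusters. Among clusters with fewer than 50 cells of a genotype, it was higher in dCD in cluster 7, at 127.8 CPM (86.8 to 181.4) in 11 dCD cells and 56.8 (48.6 to 66.0) in 182 WT cells. The same held in cluster 3, at 84.3 CPM (76.3 to 92.8) in 454 dCD cells and 18.4 (5.97 to 42.9) in 22 WT cells. Over all cells of both genotypes its level ran from 13.0 CPM in cluster 8 to 339.7 in cluster 1 and 244.5 in cluster 6.

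In the same clusters *Ccnd2* had a dCD to WT ratio of 1.39 (1.21 to 1.59) in cluster 1, short of 2-fold, and of 5.92 (4.97 to 7.09) in cluster 6. *Cdkn2a* was 3.72-fold (3.05 to 4.54) and 2.52-fold (2.02 to 3.16) higher. *Ccne2*, lower in dCD over all cells, had ratios of 1.59 (1.16 to 2.14) and 1.09 (0.658 to 1.81), and *Ccne1* of 1.38 (1.03 to 1.82) and 1.61 (1.20 to 2.17). *Cdkn1b* had ratios of 0.789 and 1.31 with intervals that held 1. The E-type cyclins thus did not differ in opposite directions within these clusters. *Ccnd3* had ratios of 0.733 and 1.41, *Cdk6* of 1.54 and 0.674, and *Cdk4* of 0.940 and 0.954, none past 2-fold. *Ccnd2* was past 2-fold in cluster 6 and not over all cells or in cluster 1.

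**Figure D5:**
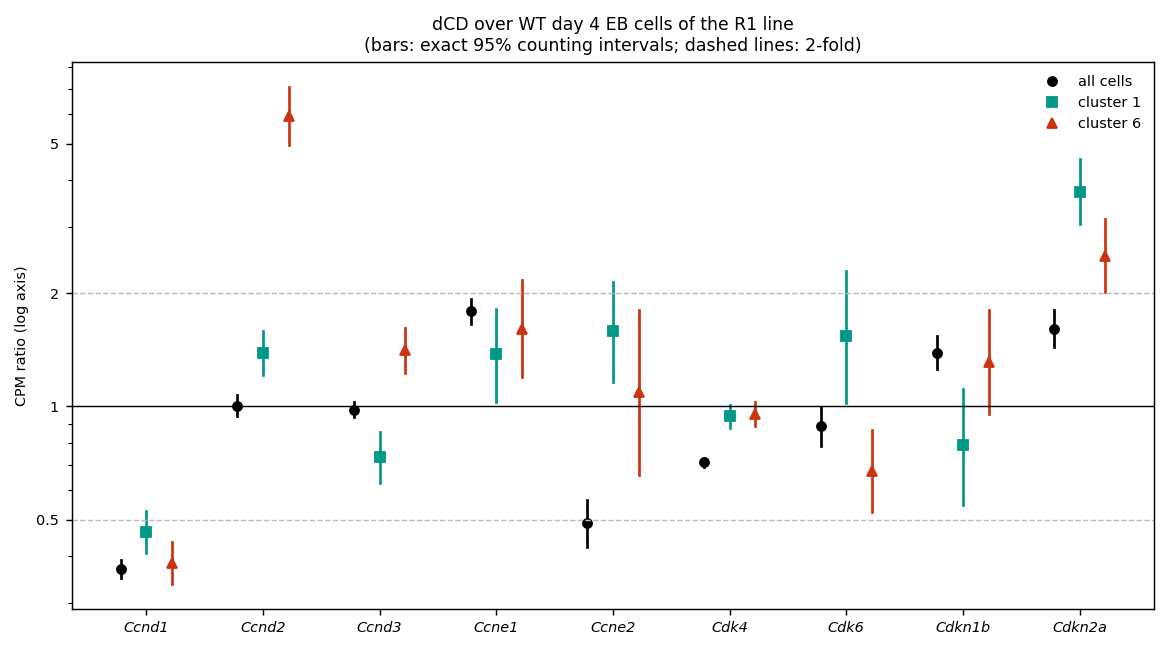
CPM ratio (log axis) of dCD to WT day 4 EB cells for each gene over all cells (circles) and within clusters 1 (squares) and 6 (triangles), with exact 95% counting intervals; the dashed lines mark 2-fold. Ccnd1 lies below 1 in all of these, and Ccnd2 lies at 1 over all cells and at 5.92 in cluster 6.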

How the data were processed

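The authors deposited UMI counts per gene and cell made with Cell Ranger from 10x 3′ libraries (kit version 2 for E14Tg2a, 3 for R1). E14Tg2a libraries had been aggregated with read depth equalized, and R1 cells had been kept at 2000 or more detected genes. The submitters' processing notes name the build mm10 (GRCm38); gene coordinates come from its GENCODE annotation. Cells were assigned to libraries by barcode suffix and PGCLC by the authors' barcode list (135 of 135 found). The header of the E14Tg2a table holds 1 broken barcode. Library pairs that shared cell barcodes numbered 7 of 45, with 8 shared barcodes in all.

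UMI counts were summed per group with Python 3.11.15, numpy 2.4.6, pandas 2.3.3 and scipy 1.17.1, scaled to CPM and compared on log2(CPM + 1), with genes of at least 50 UMIs as the background. Intervals were exact at 95%. The statistics were tested on simulated data. For the 44 day 4 PGCLC a first criterion, how near the recovered ratios came to the simulated ones, was not met. It was then replaced by the coverage of the exact intervals, which was met in all 12 comparisons. The simulated counts came from the Poisson model that the intervals assume, so this checked only how they were computed. UMIs gathered in single cells, as for *Cdkn2a* in that group, were not simulated, and the intervals do not cover them. Point values of that group are uncertain. Doublets were called with scanpy 1.11.5 (0.589% to 6.228% of cells per library) and kept. E14Tg2a EB were clustered with scikit-learn 1.9.0 (k-means, 20 components) and R1 EB with Seurat 5.3.0 (R 4.3.3, resolution 0.3), without members and cell cycle genes. Thinning used 15374 UMIs per cell in E14Tg2a, where 4 to 37 cells per library were left out, and 6831 in R1, where 50 WT and 170 dCD cells were left out.

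Named genes were the 9 members, G1/S genes past 2-fold and the genes nearest each member except *Cdk4*. G1/S genes were named by size, at most 6 per comparison, except that all were named for d4 PGCLC over other cells. Of the nearest genes, 3 were named for each cyclin and the first for *Cdk6*, *Cdkn1b* and *Cdkn2a*. Members and lists were chosen with earlier results of these data known. Alternatives were another pseudocount, filter or fold, doublets removed, thinning, means over cells, median centring, extraembryonic ectoderm cells removed and single clusters.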

Additional observations from a re-analysis of the deposited data

Results flagged for a closer look

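These differences were noted because a gene differed in opposite directions under the same contrast in separate groups of cells, with counting intervals that left out 1 on either side. The difference between the groups was not tested, as each condition had 1 library. *Ccnd3* had a dCD to WT ratio of 0.733 (0.626 to 0.855) in R1 cluster 1 and 1.41 (1.23 to 1.62) in cluster 6. *Cdk6* had ratios of 1.54 (1.02 to 2.29) and 0.674 (0.522 to 0.866) in the same clusters. *Cdkn1b* had a ratio of listed PGCLC to other cells of 2.17 (1.03 to 4.22) in day 2 cluster 1, on 12 and 39 UMIs, and 0.452 (0.217 to 0.873) in cluster 2, on 12 and 43 UMIs. *Ccne1* had a day 4 to day 2 ratio of 0.626 (0.418 to 0.913) in listed PGCLC, on 34 and 151 UMIs, and 1.19 (1.05 to 1.36) in the other EB cells.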

How the results depend on the processing

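No paired analysis was possible because each group has 1 library, and no replicate could be left out. Of 806 recomputed log2 ratios of members, 22 had another sign than the reported value, and 0 of these were of a member past 2-fold. The 806 include 103 at 1.5-fold and 103 with a minimum of 10 UMIs. These settings change only the threshold or filter, so their ratios could not differ from the reported ones. The number of members past 2-fold changed by more than 1.5 times in these cases. After thinning it was 2 in d1 EpiLC over 2i ESC, 2 in d2 over d1 EpiLC and 2 in d3 over d2 EpiLC. The smaller counts left 6, 7 and 8 members with enough UMIs. Members that had been past 2-fold and dropped out (*Ccnd2* and *Ccne2*, *Ccnd2* and *Cdkn1b*, *Cdkn2a*) had ratios still beyond 2-fold. In d1 EpiLC over 2i ESC *Cdkn1b*, not past 2-fold before, had a thinned log2 ratio of -0.30. *Ccnd1* in d3 over d2 EpiLC came to less than 2-fold. With a pseudocount of 5 CPM it was 1 in d2 over d1 EpiLC, 2 in d3 over d2 EpiLC, 2 in EpiSC over d3 EpiLC, 1 in d2 PGCLC over other cells and 2 in d4 over d2 other cells. At 1.5-fold it was 6 in d4 PGCLC over other cells, 4 in d4 over d2 PGCLC and 4 in dCD over WT. The shares of all genes given above are for the main setting. The counts under thinning, the larger pseudocount and 1.5-fold therefore have no such share beside them and are not read against the background. Within clusters, a choice made after seeing the data, the number past 2-fold was 4 for d2 PGCLC over other cells in cluster 2 alone. For dCD over WT it was 2 and 3 in clusters 1 and 6. The share of all genes past 2-fold was counted over all cells only, so these counts are not read against the background either. As a mean over cells, the *Ccnd1* share of D-type cyclin UMIs was 46.3% in d1 EpiLC, 18.9% in d2 EB, 4.48% in d4 EB, 29.3% in WT, 20.8% in dCD, 17.8% in d2 other cells and 4.6% in d4 other cells, and after thinning it was 5.55% in d4 EB. The cause was not tested. With medians of all genes set to 0, *Cdkn1b* passed 2-fold in d1 EpiLC over 2i ESC (log2 ratio -1.02), *Ccne2* did not in EpiSC over d3 EpiLC (0.96), and *Ccnd1* did not in d3 over d2 EpiLC (-0.98). Without extraembryonic ectoderm cells *Ccnd3* in d2 other cells over d2 EpiLC was at 0.93. Depth limited *Cdkn1b*, *Cdkn2a* and *Cdk6* in the 44 day 4 PGCLC, with 14, 15 and 7 UMIs.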
